A study of Mus musculus with 16 samples.

Results

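The Myc, Max and Mxd network was followed in RAW264.7, a mouse tumour line that resembles macrophages, through 8 genes (Myc, Max, Mxd1, Mxd4, Mxi1, Mnt, Mlx and Mga). The members were all non-control probes whose gene name in the array files equalled 1 of these names, 10 probes of the 55681 on each 1-colour Agilent array. Of the 8 genes 7 had a probe whose signal stood well above background throughout 1 or more conditions (4 arrays each) and were tested among 15874 genes in all. Cells without any engineered genetic change were kept in medium with reduced serum. They were given the vehicle DMSO or 20 μM of the polyadenylation inhibitor cordycepin, an analogue of adenosine. After 60 min they were given vehicle control, or LPS at 1 μg/ml, for another 60 min. LPS is a component of the bacterial outer membrane. The conditions without LPS are called DMSO and cordycepin and those with it LPS+DMSO and LPS+cordycepin. Each was collected 120 min after the first addition on 4 separate days, which gave 4 biological replicates per condition and 16 arrays. All 4 conditions therefore share the line, the vehicle and the lowered serum, and as the line is a tumour line its growth control need not be that of a macrophage in tissue.

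The network is a set of basic helix-loop-helix leucine zipper proteins that bind E-boxes as pairs. Myc pairs with Max on E-boxes with the core CACGTG and raises transcription of genes for ribosome building, nucleotide synthesis and the cell cycle, whereas Mxd proteins and Mnt take Max for themselves and recruit the Sin3 histone deacetylase complex to the same sites. Mlx pairs with Mxd1, Mxd4, Mnt and the glucose-sensing Mondo proteins, and Mga is a large Max partner found in a repressive Polycomb complex. Myc mRNA and Myc protein are both known for short lifetimes, and Myc is a classic early gene of macrophages exposed to LPS.

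Promoters of 7 of the 8 genes were found in the RefSeq table (GRCm38.p6, 250 bases before to 50 after each start, 9 starts in all), and 4 of them, those of Max, Mlx, Mnt and Mxd4, held the E-box CACGTG that the network itself binds. That sequence, which reads the same on both strands, was present in 7.15% of the 32851 mouse promoters of this length. None of the 9 member promoters held TATAAA (13.6% of all promoters, either strand), the AP-1 motif TGANTCA (7.81%), the NF-kB motif (4.51%) or the cyclic AMP response element TGACGTCA (1.79%). The 4 E-boxes are shown because they match the recognition sequence of the network and lie in promoters of its own genes. The E-box is in capitals with 12 bases on either side, 5′ to 3′ on the strand of the gene.
Max: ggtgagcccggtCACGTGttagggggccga
Mlx: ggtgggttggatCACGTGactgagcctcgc
Mnt: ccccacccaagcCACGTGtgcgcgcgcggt
Mxd4: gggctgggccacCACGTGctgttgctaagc
They lie at chr12:76962234-76962263 (minus strand), chr11:101087238-101087267 (plus), chr11:74830789-74830818 (plus) and chr5:34187912-34187941 (minus). The E-box of Max begins 3 bases before the annotated start, that of Mlx 40, that of Mnt 123 and that of Mxd4 219 bases before it. A match of letters is a description of the promoter and not a binding site, and no binding was measured on these arrays.

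The probes are 60 bases long and lie on RefSeq transcripts of their genes, on mm9, and the files do not say which exon or UTR a probe is in. Mxd1 and Mxd4 had 2 probes each and the other genes 1. The last 30 bases of 4 probes are shown, as the results for Myc and Mxd1 turn on their probes. The Max probe is shown because it holds AATAAA, the letters of a polyadenylation signal, set in capitals. This is a match of letters, and its use was not measured.
Myc: gaaactctggtgcataaactgacctaactc
Mxd1, upstream probe: gcgcctttgcgttaaactgttttttatttt
Mxd1, downstream probe: gatgtttctttctgtaaatatggtgccaat
Max: cccctttactataagaatataAATAAAaac
The Myc probe covers chr15:61821417-61821476 and is spotted at 2 places on the array. The upstream Mxd1 probe covers chr6:86599053-86599112 and the downstream one chr6:86597190-86597249, 1863 bases nearer to the 3′ end on the minus strand. The Max probe covers chr12:78038272-78038331. Of all 55681 probes 10.1% hold AATAAA, so a probe of this kind is common on the array.

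On each array 37.1% to 51.2% of the 59305 spots were well above background and none was saturated. Of 13 macrophage markers 11 were well above background on all 16 arrays, the brightest being Csf1r, the receptor for macrophage colony stimulating factor, and among fibroblast and epithelial markers no gene passed the filter. Of the 5 T cell markers Cd3e and Cd4 were above background on all arrays. The summed signal of the 5, each counted only where well above background, overlapped between conditions. It was 1270 to 1670 in DMSO and 986 to 2830 in LPS+cordycepin. Among the B cell markers Ms4a1 was well above background on no array, while Cd79a, a subunit of the B cell receptor, rose by 2.63 from LPS+DMSO to LPS+cordycepin on the log2 scale (SE 0.31, limma adjusted p = 1.25e-05). The mean signal of Cd79a was 8.96 in LPS+cordycepin and between 5.92 and 6.32 in the other conditions (log2, n = 4), and its part in the values of the network genes was not tested. Replicates 1 and 2 of every condition were on 1 slide and replicates 3 and 4 on the other, so slide was balanced over the conditions. These are RNA levels of whole cultures, in which fewer cells with a transcript and less transcript per cell cannot be told apart.

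Myc, the activator among the 8 members, had the widest range of them. In DMSO its scaled signal (log2, each array set to the same upper quartile) was 4.68, 6.69, 4.96 and 4.13 in replicates 1 to 4, and only replicate 2 was well above background. In cordycepin it was 3.89, 4.27, 4.03 and 4.57, with no array well above background. With LPS it reached 8.30, 8.79, 8.05 and 9.56 in the DMSO cultures (LPS+DMSO) and 6.59, 6.49, 6.86 and 7.06 in those with cordycepin, with all arrays of both conditions well above background. Every LPS+DMSO array was thus above every array of the other conditions, and LPS+cordycepin lay between LPS+DMSO and cordycepin without overlap with either. LPS+cordycepin did overlap with DMSO, whose replicate 2 (6.69) was above LPS+cordycepin replicates 1 and 2 (6.59 and 6.49).

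LPS raised Myc by 3.56 on the log2 scale (SE 0.43, n = 4 arrays per condition, 95% interval 2.64 to 4.48, adjusted p = 2.77e-05 in limma with Benjamini-Hochberg adjustment over all genes). The difference was 3.62, 2.10, 3.10 and 5.43 in replicates 1 to 4, with a mean of 2.86 on the slide of replicates 1 and 2 and of 4.26 on the other slide. Its size depends on how the near-background DMSO values are treated. It was 1.92 with normexp background correction (limma adjusted p = 0.00106) and 2.55 in the value table of the authors (limma adjusted p = 2.36e-05). The 2 spots of the probe gave 16.4 and 86.8 intensity units on DMSO replicate 3, where only the brighter was well above background.

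Cordycepin lowered the level of Myc that LPS-treated cells reached. In LPS+cordycepin Myc was 6.75 ± 0.26 and in LPS+DMSO 8.68 ± 0.67 (log2 mean ± SD, n = 4), a difference of -1.92 (SE 0.43, 95% interval -2.85 to -1.0, limma adjusted p = 0.00422) or 3.80-fold. With normexp background correction it was -1.26 (limma adjusted p = 0.0179). It was lower in all 4 replicates (-1.71, -2.30, -1.19 and -2.50), with means of -2.0 on the slide of replicates 1 and 2 and -1.85 on the other. With slide as a block the limma adjusted p was 0.00495.

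Within cordycepin LPS still raised Myc, by 2.56 (SE 0.43, limma adjusted p = 0.00101) and in all 4 replicates (2.22 to 2.83). As no cordycepin array was well above background, this is given as a bound, at least 2.82-fold higher, against the lowest signal that counted as above background on those arrays. With normexp background correction the change was 0.96 and did not pass (limma adjusted p = 0.151). Between cordycepin and DMSO without LPS the Myc values overlapped (log2 difference -0.92, 95% interval -1.84 to -0.0036, limma adjusted p = 0.178). Here quantile normalization gave -1.23 (limma adjusted p = 0.0433), with the probe below background on 7 of the 8 arrays. The interaction, the response to LPS with cordycepin minus that without it, did not pass for Myc (95% interval -2.30 to 0.30, limma adjusted p = 0.824). As both baselines were mostly not well above background, no size or direction is read from it. The 3 genes whose signal ran most like that of Myc over the 16 arrays were Ets2 (Pearson r = 0.975), Clec4e (0.973) and Osgin2 (0.971), a description of arrays that share the 4 conditions and the 2 slides.

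**Figure D1:**
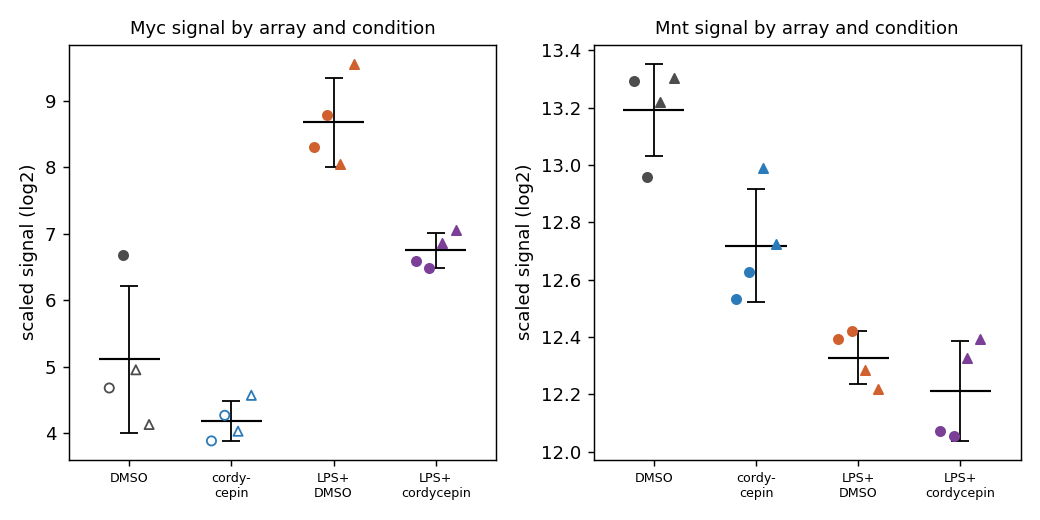
Scaled signal (log2, vertical axis) of the Myc probe (left) and the Mnt probe (right) on each array of the 4 conditions, with circles for replicates 1 and 2 (1 slide), triangles for replicates 3 and 4 (the other slide), open symbols where the probe was not well above background, and lines and bars for the mean ± SD of 4. Myc is at 8.05 or above on all LPS+DMSO arrays and at 7.06 or below on all others, and Mnt is at 12.96 or above on all DMSO arrays and at 12.42 or below on all arrays with LPS.

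Max, the shared partner, was among the least variable members. Without LPS its values lay between 13.48 and 13.65 in DMSO and between 13.55 and 13.65 with cordycepin. With LPS they lay between 13.29 and 13.44 in DMSO and between 13.46 and 13.93 with cordycepin. The LPS+DMSO arrays were below all the others. Neither difference passed, at -0.19 (SE 0.09, limma adjusted p = 0.207) for LPS+DMSO against DMSO and 0.26 (SE 0.09, limma adjusted p = 0.0667) for LPS+cordycepin against LPS+DMSO. The second passed in 5 of 39 alternatives, as with scaling to the median (0.28, limma adjusted p = 0.0432). The values of cordycepin and DMSO overlapped (0.04, 95% interval -0.17 to 0.24). The genes most like Max were Scamp3 (r = 0.919), Fblim1 (0.905) and Ripor1 (0.88) over the same 16 arrays.

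Mxd1, the repressor that takes over Max as cells leave the cycle, gave opposite answers from its probes. At the downstream probe, the brighter over the 16 arrays and the 1 used for the gene, the signal was 8.02, 8.37, 7.66 and 8.02 in DMSO and 8.74, 8.89, 8.98 and 9.11 in cordycepin (log2, replicates 1 to 4). It was 8.55, 8.56, 8.80 and 9.02 in LPS+DMSO and 9.32, 9.60, 9.44 and 9.66 in LPS+cordycepin. DMSO was below all other conditions and LPS+cordycepin above all of them, while cordycepin and LPS+DMSO overlapped.

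At the upstream probe the order was another. The signal was 7.80, 8.04, 7.90 and 8.15 in DMSO, and 6.75, 5.67, 6.64 and 6.78 in cordycepin, where replicate 2 was not well above background. It was 8.90, 8.99, 8.94 and 9.50 in LPS+DMSO and 7.49, 7.39, 7.51 and 8.16 in LPS+cordycepin. Here every LPS+DMSO array was above, and every cordycepin array below, all arrays of the other conditions, and DMSO and LPS+cordycepin overlapped.

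Both probes rose with LPS. In LPS+DMSO against DMSO the downstream probe rose by 0.72 (SE 0.15, limma adjusted p = 0.00315) and the upstream probe by 1.11 (SE 0.23, limma adjusted p = 0.00387 in the fit of every probe on its own), both in all 4 replicates. The downstream value was 0.36 on the slide of replicates 1 and 2 and 1.07 on the other, and without replicate 3 it was 0.57 and did not pass (limma adjusted p = 0.0643). With LPS in cordycepin the rises were 0.58 (SE 0.15, limma adjusted p = 0.0236) and 1.18 (SE 0.23, limma adjusted p = 0.00424), of which the former lost its call in 13 of 39 alternatives.

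With cordycepin the probes moved apart. In cells with LPS the downstream probe rose by 0.77 (SE 0.15, limma adjusted p = 0.0012) while the upstream probe fell by 1.45 (SE 0.23, limma adjusted p = 0.000241). In cells without LPS the downstream probe rose by 0.91 (SE 0.15, limma adjusted p = 0.00036) and the upstream probe fell by 1.51 (SE 0.23, limma adjusted p = 0.000219). Of all probes tested on their own 20.2% passed with cordycepin in LPS-treated cells and 16.8% without LPS, beside 14.5% with LPS in DMSO and 7.88% with LPS in cordycepin. All 4 replicates and both slides had these directions, so that a rise or a fall of Mxd1 with cordycepin depends on the probe read, and with the mean of both probes the changes were -0.34 and -0.30 and did not pass (limma adjusted p = 0.186 and 0.245).

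The downstream less upstream signal of each array shows this within arrays, where array scaling cancels. The difference was 0.05 ± 0.27 in DMSO and 2.47 ± 0.53 in cordycepin, and with LPS it was -0.35 ± 0.15 in DMSO cultures and 1.87 ± 0.29 in cordycepin cultures (log2 mean ± SD, n = 4). Its own zero has no meaning, as probes differ in brightness, but its shifts do not depend on that. With cordycepin it was higher by 2.42 in cells without LPS and by 2.22 in cells with LPS, without overlap in either case. The two-sided exact permutation p was 0.0286 each, the smallest that 70 splits of 4 against 4 arrays allow, and 0.0571 after Benjamini-Hochberg adjustment over 4 such comparisons. It restates the lack of overlap, since this difference was taken up after the probes had been seen to move apart, and the splits do not take account of slide or day. With LPS it differed by -0.40 in DMSO and -0.60 in cordycepin (exact permutation p = 0.0571 each). The downstream probe ran most like Nr4a2 (r = 0.975), Tspoap1 (0.948) and Fgf18 (0.939), the upstream probe like Cebpb (0.975), Swt1 (0.969) and Gpatch2l (0.964), so the 2 probes had no gene in common among their 3 nearest.

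**Figure D2:**
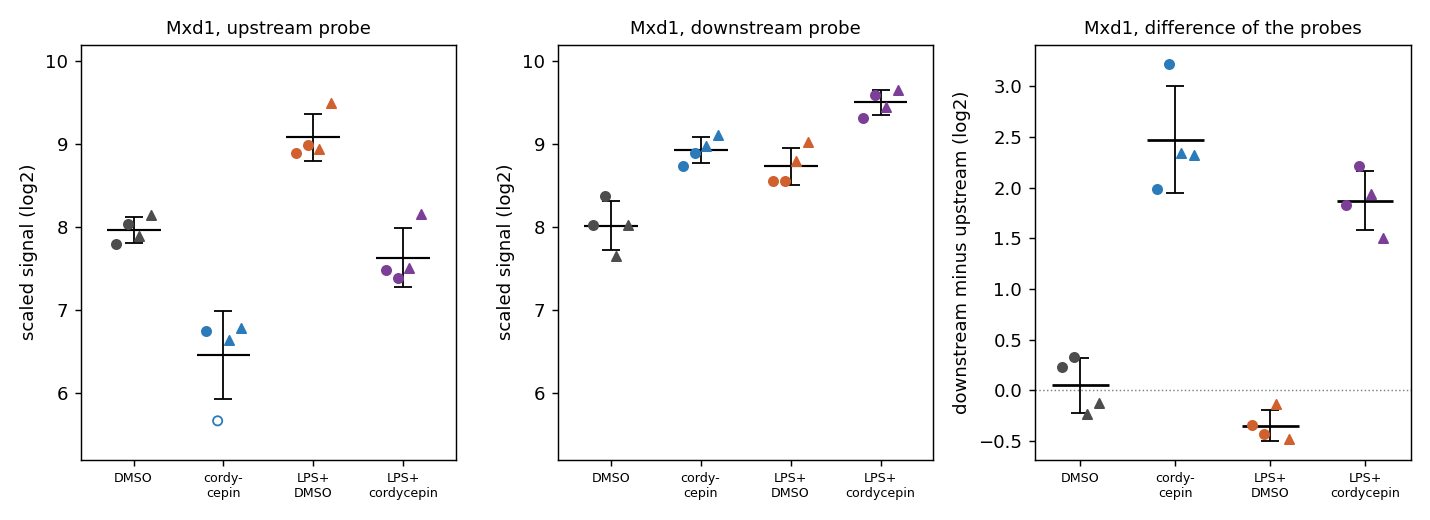
Scaled signal (log2) of the upstream (left) and downstream (middle) Mxd1 probe on each array by condition, and the downstream less upstream difference on the same array (right, log2), with symbols, lines and bars as in the plot of Myc and Mnt and a dotted line at 0. The difference is at 1.5 or above on all 8 arrays with cordycepin and at 0.33 or below on all 8 arrays without it.

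Mxd4, a repressor of the same family, did not pass in any comparison. At its brighter probe (chr5:34519323-34519382) the signal ranged from 7.39 to 8.30 in DMSO and 7.68 to 8.70 with cordycepin, and with LPS from 7.45 to 8.07 in DMSO and 7.53 to 8.24 with cordycepin, with overlap between all conditions. The widest difference was 0.40 between cordycepin and DMSO (95% interval -0.10 to 0.91, limma adjusted p = 0.292). Its other probe (chr5:34519276-34519335), which overlaps the former, was well above background on the slide of replicates 3 and 4 alone, 2 of 4 arrays in each condition, and was not tested. Mxi1, also called Mxd2, was well above background on none of the 16 arrays at its single probe (chr19:53450238-53450297), so no fold is given for it. The genes most like Mxd4 were Ndufs7 (r = 0.914), Mrps25 (0.886) and Ppp1r9a (0.855).

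Mnt, the constitutive repressor that holds Max in resting cells, fell with LPS. Its signal (chr11:74658915-74658974) was 13.29, 12.96, 13.22 and 13.30 in DMSO and 12.53, 12.63, 12.99 and 12.72 in cordycepin. With LPS it was 12.39, 12.42, 12.29 and 12.22 in LPS+DMSO and 12.07, 12.05, 12.33 and 12.39 in LPS+cordycepin. The DMSO arrays were above both LPS conditions without overlap, cordycepin overlapped with DMSO on 1 array, and the 2 LPS conditions overlapped.

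Mnt was lower in LPS+DMSO than in DMSO by 1.82-fold (log2 -0.86, SE 0.12, limma adjusted p = 8.73e-05), in all 4 replicates and by means of -0.72 and -1.01 on the 2 slides. It was also lower in cordycepin than in DMSO (-0.47, SE 0.12, limma adjusted p = 0.0105) and in LPS+cordycepin than in cordycepin (-0.51, SE 0.12, limma adjusted p = 0.0124), each in 4 of 4 replicates. Those 2 calls were each lost in 7 of 39 alternatives, the former without replicate 1 (-0.38, limma adjusted p = 0.129) or 4 (-0.44, limma adjusted p = 0.0694) and the latter without replicate 1 (-0.52, limma adjusted p = 0.0616) or 3 (-0.46, limma adjusted p = 0.114). Between LPS+cordycepin and LPS+DMSO Mnt differed by -0.12 (95% interval -0.37 to 0.13, limma adjusted p = 0.594). The cordycepin difference in LPS was -0.34 on the slide of replicates 1 and 2 and 0.11 on the other slide. The interaction was 0.36 for Mnt (95% interval 0.0025 to 0.71, limma adjusted p = 0.65). Most like Mnt were Zfp287 (r = 0.95), the nuclear long noncoding RNA Malat1 (0.947) and Jmjd7 (0.946).

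Mlx, the Max-like partner of the Mondo proteins, was level. Its signal (chr11:100952426-100952485) lay between 10.55 and 11.08 on all 16 arrays, and its differences ranged from -0.01 to 0.05, with 95% intervals within -0.23 and 0.27. Mga (chr2:119792479-119792538) varied more between replicates, from 6.12 to 7.79 in LPS+DMSO alone, and was not well above background on cordycepin replicate 2. Its widest difference was 0.52, LPS+cordycepin against cordycepin (95% interval -0.20 to 1.23, limma adjusted p = 0.495). Most like Mlx were Cmss1 (r = 0.876), Itgb1bp1 (0.852) and Ubxn8 (0.846), and most like Mga were Ubr1 (0.912), Ints8 (0.898) and Wnk1 (0.889).

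Counted over the network, LPS in DMSO raised 2 of the 7 tested members (Myc and Mxd1) and lowered 1 (Mnt). Of all tested genes 14.9% were called in that comparison, 5.13% higher and 9.8% lower. Cordycepin in LPS-treated cells lowered Myc and raised Mxd1 at its downstream probe, 2 of 7 beside 19.2% of all genes (10.7% higher and 8.47% lower). Cordycepin without LPS raised Mxd1 at that probe and lowered Mnt, 2 of 7 beside 15.8% (8.21% higher and 7.57% lower). LPS in cordycepin raised Myc and Mxd1 and lowered Mnt, 3 of 7 beside 8.16% (3.55% higher and 4.62% lower). For the interaction no member passed in limma, beside 0.554% of all genes. With a minimum of 2-fold in addition, and Mxd1 read at its downstream probe, Myc was the 1 member called in 3 comparisons. These were LPS in DMSO (4.59% of all genes called), cordycepin in LPS-treated cells (7.46%) and LPS in cordycepin (2.91%). No member was so called for cordycepin without LPS (5.55%). The upstream Mxd1 probe, in the fit of every probe on its own, passed with more than 2-fold in all 4 comparisons. It was 2.16-fold higher with LPS in DMSO and 2.26-fold higher with LPS in cordycepin. With cordycepin it was 2.73-fold lower in LPS-treated cells and 2.85-fold lower without LPS. The comparisons share arrays, so these counts are not independent of each other.

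**Figure D3:**
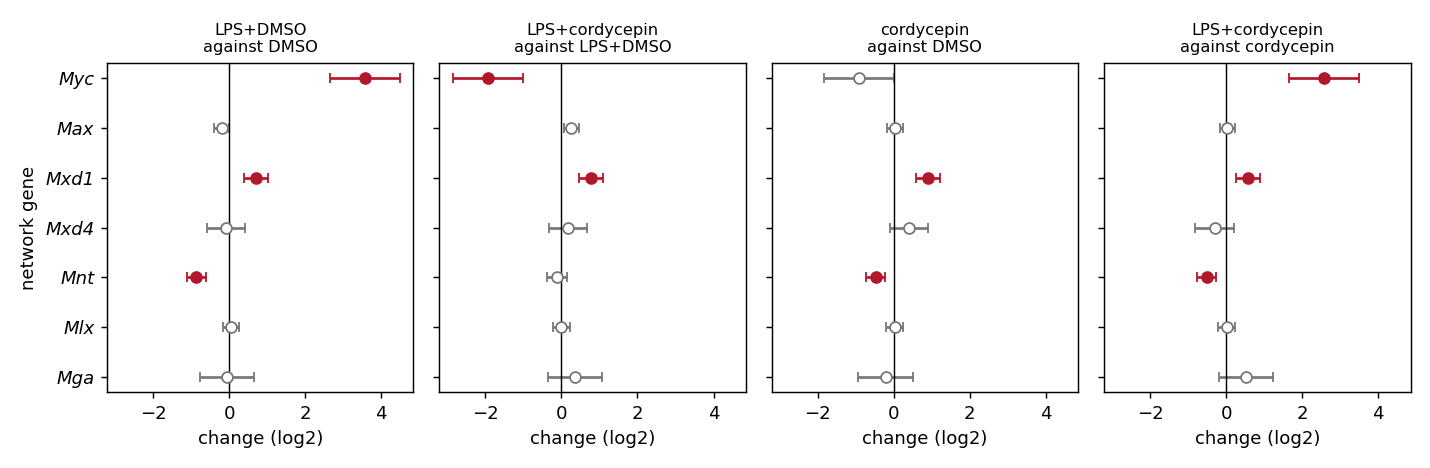
Change of each tested network gene (log2, horizontal axis, with its 95% interval) in the 4 comparisons, n = 4 arrays per condition, filled red where the limma adjusted p was under 0.05 and open grey otherwise. Myc is filled at 3.56, -1.92 and 2.56 and open at -0.92 for cordycepin against DMSO. Its points in comparisons with DMSO or cordycepin rest on arrays where it was mostly not well above background. Mxd1 is drawn at its downstream probe.

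Listed Myc target genes, which serve ribosome building, polyamine and nucleotide synthesis and the cell cycle, were less changed than Myc itself. Of 59 such genes 57 were tested. These and the listed genes below were each read at their brightest probe alone, and any other probes were not compared. LPS in DMSO raised 7 and lowered 2, 15.8% against 14.9% of all genes (5.13% higher and 9.8% lower). The median change was 0.14 against -0.04 over all tested genes. The 9 calls became 5 without replicate 1 or 2, 6 without replicate 3 and 7 without replicate 4. The largest rises were in Odc1, the first enzyme of polyamine synthesis (0.88, SE 0.15, limma adjusted p = 0.000585), and Rrs1, a ribosome assembly factor (0.87, SE 0.09, limma adjusted p = 3.51e-06). The falls were in Slc29a2, a nucleoside transporter (-0.95, SE 0.19, limma adjusted p = 0.002), and E2f2, a cell cycle transcription factor (-0.66, SE 0.13, limma adjusted p = 0.00238).

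Cordycepin in LPS-treated cells lowered 8 of these 57 genes (14%) and raised none. Of all genes 8.47% were lower and 10.7% higher, 19.2% in all. The median change of the list was -0.04 against 0.03 over all tested genes. The 8 calls became 5, 7, 3 and 6 without replicates 1, 2, 3 and 4. The widest falls were in Grwd1 (-0.69, SE 0.13, limma adjusted p = 0.001) and Ppan (-0.57, SE 0.10, limma adjusted p = 0.000654), both ribosome assembly factors. Cordycepin without LPS lowered 4 of 57 (Grwd1, Cdc25a, Nip7 and Wdr43, by 0.25 to 0.44), or 7.02%, and raised none. Of all genes 7.57% were lower and 8.21% higher, 15.8% in all. LPS in cordycepin raised Rrs1 (0.89) and Wdr43 (0.37) and lowered Slc29a2 (-0.97), 5.26% against 8.16%.

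**Figure D4:**
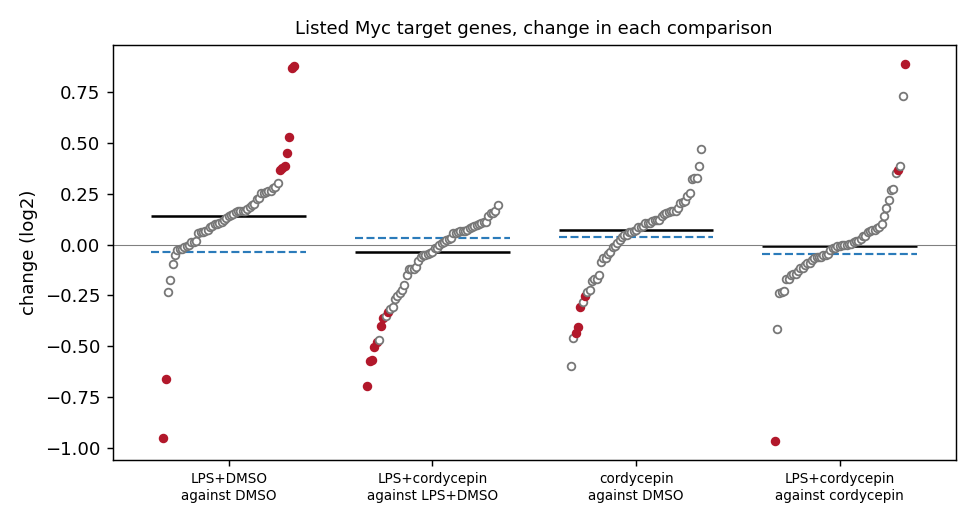
Change (log2, vertical axis) of the 57 tested Myc target genes in each comparison, ordered by size within it, filled red where the limma adjusted p was under 0.05, with a black line at the median of the list and a dashed blue line at the median of all tested genes. In LPS+DMSO against DMSO the list median is 0.14 and that of all genes -0.04, and in LPS+cordycepin against LPS+DMSO all 8 genes that passed are below 0.

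Of genes that Myc is known to repress 9 of 10 were tested, and 3 rose with LPS in DMSO. That is 33.3% of the list, against 5.13% of all genes higher and 14.9% called in either direction. The 3 genes were Gadd45b, a stress response gene (2.13, SE 0.13, limma adjusted p = 1.69e-08), Cdkn1a, the cell cycle inhibitor p21 (1.42, SE 0.14, limma adjusted p = 3.89e-06), and Klf6 (1.14, SE 0.11, limma adjusted p = 3.82e-06). With cordycepin in LPS-treated cells Cdkn1a rose (0.54, SE 0.14, limma adjusted p = 0.0135) and Klf6 fell (-0.40, SE 0.11, limma adjusted p = 0.0215), while Gadd45b did not pass. These 2 of 9 are 22.2% against 19.2% of all genes, and they became 1 without replicate 1 and 0 without replicate 3 or 4. Cdkn1a also rose with cordycepin alone (0.61), 11.1% of the list against 8.21% of all genes higher and 15.8% called. Gadd45b, Cdkn1a and Klf6 all rose with LPS in cordycepin (1.01 to 1.90), 33.3% against 3.55% higher and 8.16% called.

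Among 16 genes for the turnover of Myc protein, 3 passed with LPS in DMSO, beside 14.9% of all genes. Pim1 and Pim3, kinases known to stabilise Myc, rose by 3.83 (SE 0.15, limma adjusted p = 9.58e-11) and 1.15 (SE 0.15, limma adjusted p = 5.53e-05). Fbxo32, a ubiquitin ligase subunit, fell (-1.25, SE 0.18, limma adjusted p = 0.000127). Its probe was well above background on 4 DMSO, 3 cordycepin, 2 LPS+DMSO and 1 LPS+cordycepin arrays of 4 each. The sizes of all Fbxo32 changes given here are therefore limited by signal near background. In LPS-treated cells cordycepin lowered 3 and raised none, namely Pim3 (-0.62, SE 0.15, limma adjusted p = 0.0069), the deubiquitinase Usp37 (-0.54, SE 0.15, limma adjusted p = 0.0217) and Pim1 (-0.45, SE 0.15, limma adjusted p = 0.0482). These 3 of 16 are near the 19.2% of all genes, and they became 1 without replicate 3 and 2 without any other replicate. Cordycepin without LPS lowered Fbxo32 (-0.96), Fbxw7 (-0.76), the subunit that marks Myc for degradation, and Usp37 (-0.67). These 3 of 16 stand beside 7.57% of all genes lower and 15.8% called in either direction. LPS in cordycepin raised Pim1 (3.64) and Pim3 (0.67) and lowered Fbxo32 (-0.73), again 3 of 16, beside 8.16% of all genes.

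Of 10 corepressor genes of the Mxd proteins and Mnt none passed with LPS in DMSO, beside 14.9% of all genes. With cordycepin 2 passed, or 20% of the list, beside 19.2% of all genes in LPS-treated cells and 15.8% without LPS. Sin3a, the scaffold that Mxd proteins bind, fell by 0.68 with cordycepin in LPS-treated cells (SE 0.14, limma adjusted p = 0.00185) and by 0.60 with cordycepin alone (SE 0.14, limma adjusted p = 0.00618). Sap18, another subunit of the complex, rose by 1.04 (SE 0.12, limma adjusted p = 1.1e-05) and 0.85 (SE 0.12, limma adjusted p = 0.000117) in the same comparisons. Of 15 tested Myc cofactors none passed with LPS in DMSO. With cordycepin in LPS, cordycepin alone and LPS in cordycepin 1 was lower each time (6.67%). Of all genes 8.47%, 7.57% and 4.62% were lower in these comparisons, and 19.2%, 15.8% and 8.16% were called in either direction. Kat5, a histone acetyltransferase, fell with cordycepin with LPS (-0.46, SE 0.10, limma adjusted p = 0.00314) and without it (-0.45, SE 0.10, limma adjusted p = 0.00516). LPS in cordycepin lowered Mycbp (-0.61).

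Of 12 genes of the Mga complex 3 passed with LPS in DMSO (25% against 14.9% of all genes), the ubiquitin ligase Rnf2 (0.57, SE 0.15, limma adjusted p = 0.0153) and its partner Rybp (0.39, SE 0.13, limma adjusted p = 0.0497) upwards and E2f6 downwards (-0.50, SE 0.09, limma adjusted p = 0.00115). The 3 calls became 2 without replicate 1 or 3 and 1 without replicate 2 or 4. With cordycepin in LPS-treated cells none passed, beside 19.2% of all genes. Cbx3 rose with cordycepin alone (0.41), 8.33% against 8.21% of all genes higher and 15.8% called. In cordycepin LPS raised Rnf2 (0.50) and lowered E2f6 (-0.34), 16.7% against 8.16% called. Of 7 tested target genes of the Mondo and Mlx pair, LPS in DMSO lowered Txnip, the inhibitor of glucose uptake (-1.53, SE 0.15, limma adjusted p = 3.89e-06), and raised Fasn, fatty acid synthase (0.49, SE 0.14, limma adjusted p = 0.0228), 28.6% of the list against 14.9% of all genes. The 2 calls became 1 without replicate 3 or 4. None passed with cordycepin in LPS-treated cells, beside 19.2% of all genes. Fasn also rose with cordycepin alone (0.69), 14.3% of the list against 8.21% of all genes higher and 15.8% called. Txnip fell with LPS in cordycepin (-1.40), 14.3% of the list against 4.62% lower and 8.16% called. Of 8 tested relatives of the network, Mycn was lower with LPS in DMSO (-0.41, SE 0.11, limma adjusted p = 0.0169) and Tfe3 was lower with cordycepin in LPS-treated cells (-0.37, SE 0.11, limma adjusted p = 0.0234), and none passed in the other comparisons. Each is 12.5% of the list, against 9.8% and 8.47% of all genes lower and 14.9% and 19.2% called in either direction. No relative was called with LPS in DMSO without replicate 1, 2 or 3, and with cordycepin in LPS none was lower without replicate 1, 2 or 3, while 1 was higher without replicate 1.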

How the data were processed

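RNA from 16 cultures was measured on 1-colour Agilent arrays. The intensity of each spot, deposited by the authors, comes from Agilent Feature Extraction 10.10.1.1 per the labels (background subtracted, not normalized between arrays). A table of log2 values, also deposited by the authors and already normalized in a way not given in the sources used here, was an alternative. Here outlier spots were left out, spots of a probe were averaged, and log2 values were set to the 75th percentile of 18057 probes that every array measured well above background. The 21591 probes that did so throughout 1 or more conditions were kept, with the brightest probe for each gene. The 4 condition means were fitted with limma 3.58.1 in R 4.3.3, and the threshold was an adjusted p under 0.05 over 15874 genes. The fit was tested on simulated data. Python 3.11.15 read the files.

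A replicate number marks a shared culture day in the series' design. Residuals of same-numbered arrays correlated by a mean of 0.20 (-0.06 to 0.44, 20 of 24 pairs over 0.1), those of differing number by 0.18 within a slide and -0.19 across slides. The fit has no block, and blocks for replicate and slide were tried. Floors of fold bounds are the lowest signal well above background on each array. The number of arrays limits the precision, as does signal near background.

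The members and gene lists were chosen with earlier results of these data known. The text names all members, the 3 genes most correlated with each over 16 arrays, and from each list the 2 largest rises and falls with LPS in DMSO and with cordycepin in LPS. Other listed genes were named after their values were seen, to make up small counts, and so was the use of the upstream Mxd1 probe as an alternative. Motifs were searched on both strands of RefSeq promoters. A marker gene of the B cell list is not reported here.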

Additional observations from a re-analysis of the deposited data

Results flagged for a closer look

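In 40 groups of 4 arrays (10 probes in 4 conditions), 5 had 1 array far from the other 3, where chance gives about 1 in 20 groups, or 2 of 40. At the upstream Mxd1 probe these were cordycepin replicate 2 (log2 signal 5.67, not well above background, against 6.64 to 6.78), LPS+DMSO replicate 4 (9.50 against 8.90 to 8.99) and LPS+cordycepin replicate 4 (8.16 against 7.39 to 7.51). For Mga it was cordycepin replicate 2 (6.14, not well above background, against 6.97 to 7.06), and for Mlx LPS+DMSO replicate 4 (10.86 against 10.88 on the other 3 arrays, a gap of no practical size). No member passed the limma test of the interaction, which does not show that the responses were alike.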

How the results depend on the processing

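The calls of Myc for LPS+DMSO against DMSO (1.92 to 4.09) and LPS+cordycepin against LPS+DMSO (-2.17 to -1.26) held in all 38 alternatives in which it was tested. With the replicate number as a block the members called stayed 3, 2, 2, 3 and 0 (LPS in DMSO, cordycepin in LPS, cordycepin alone, LPS in cordycepin, interaction), and no member's call changed, nor with slide as a block. Scaling to 6 spiked-in control probes left 1, 1, 0 and 1 members called, with every Mxd1 and Mnt call lost at SEs of 0.38 or more (changes of 0.61, 0.64, 0.97 and 0.28 for Mxd1, and -0.98, -0.42 and -0.81 for Mnt in its 3 called comparisons), and put the all-gene median at -0.15 for LPS in DMSO and -0.35 for LPS in cordycepin. A minimum of 2-fold gave 1, 1, 0 and 1, with Mxd1 at its downstream probe. For cordycepin in LPS the count was 1 with the mean of probes and 1 with only probes above background on all arrays, where Myc was not tested. For cordycepin alone it was 1 without a filter, with the mean of probes, at an adjusted p under 0.01 and with the methods' univariate test after adjustment. For LPS in cordycepin it was 1 with normexp, without a filter and at an adjusted p under 0.01. Apart from the limits that a setting sets by construction, the cause was not tested. Leaving out 1 replicate or array gave 2 to 3, 2 to 3, 1 to 2, 1 to 3 and 0 to 0.

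Mxd1 with cordycepin reversed from 0.77 to -0.34 (mean of probes) or -1.45 (upstream probe) in LPS and from 0.91 to -0.30 or -1.51 without LPS. Over 13 alternatives the number of Myc target genes called was 0 to 9, 0 to 11, 0 to 6 and 0 to 4 in the 4 comparisons (9, 8, 4 and 3 as reported), and of Myc turnover genes 2 to 4, 0 to 5, 0 to 3 and 1 to 3. With LPS in DMSO and with cordycepin in LPS, the number called was 2 to 5 and 0 to 2 for genes Myc represses, 0 to 3 and 0 to 1 for the Mga complex, 1 to 3 and 0 to 1 for Mondo targets, 0 to 0 and 0 to 2 for corepressors, 0 to 0 and 0 to 1 for cofactors, and 0 to 2 and 0 to 2 for relatives. Where a probe is near background, as for Myc without LPS, signal limits the size of a change, and Mxi1 could not be assessed.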
